A study of Mus musculus with 292 samples.

Results

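Gfer and Rps2 lie near each other on mouse chromosome 17 and moved in opposite directions across the brains of 292 mice. They are 2 of 10835 named genes, and every probe that the array annotation assigns to either is described, which makes 17 of 23574 probes. Gfer had 1 probe and Rps2 had 16. Of the 16 Rps2 probes, 11 matched Rps2 alone, 2 carried an Rps2 name whose gene identifier did not match the mouse gene table, and 3 were assigned to Rps2 together with another gene (Rps2-ps10 for a pair of them and Snora64 for the other). Probes are named here by the last 6 digits of their number. The genes were chosen by their opposed levels across these same mice, so that relation is given as a description with no test.

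Gfer encodes a sulfhydryl oxidase of the mitochondrial intermembrane space. There it reoxidises Chchd4, the receptor (Mia40) that traps small cysteine-rich proteins by giving them disulfide bonds, and passes the electrons on to cytochrome c or oxygen. Rps2 encodes uS5, a core protein of the small ribosomal subunit that sits near the entry of the mRNA channel and is needed in every cell. Ribosomal protein genes have many processed pseudogenes, and the gene table lists 12 entries named as Rps2 pseudogenes. Signal on an Rps2 probe may therefore include RNA from near-identical copies, and every Rps2 level below carries that uncertainty.

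The RefSeq gene table (GRCm38.p6) puts 3 genes, Noxo1, Tbl3 and Rnf151, between Gfer and Rps2. None of the 3 had a probe matched to it, so Gfer and Rps2 were neighbours among the measured genes. They are read from opposite strands, Gfer from the minus strand and Rps2 from the plus strand. The start regions are shown because the results turn on this pair of genes. Each runs from 250 bases before the RefSeq start to 30 bases after it, 5′ to 3′ on the gene's own strand, with the motifs that were searched in capitals. The Gfer window is chr17:24696127-24696406 and the Rps2 window is chr17:24719813-24720092, both in the RefSeq promoter table of GRCm38.p6.
Gfer: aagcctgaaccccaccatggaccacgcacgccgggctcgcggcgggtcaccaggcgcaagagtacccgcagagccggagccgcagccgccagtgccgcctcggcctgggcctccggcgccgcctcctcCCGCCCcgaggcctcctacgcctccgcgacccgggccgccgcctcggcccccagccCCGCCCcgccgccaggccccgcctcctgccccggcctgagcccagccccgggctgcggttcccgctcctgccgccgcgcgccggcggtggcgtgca
Rps2: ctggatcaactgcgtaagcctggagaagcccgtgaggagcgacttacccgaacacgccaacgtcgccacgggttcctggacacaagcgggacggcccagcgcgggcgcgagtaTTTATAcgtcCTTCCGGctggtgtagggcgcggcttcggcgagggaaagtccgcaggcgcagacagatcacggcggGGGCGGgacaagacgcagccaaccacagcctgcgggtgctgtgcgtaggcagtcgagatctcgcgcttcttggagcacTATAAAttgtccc
Both strands were searched for the TATA box spelled as TATAAA. The CCAAT box was searched by the letters of its name, the GC box as GGGCGG, and the core bound by ETS factors as CCGGAAG. Gfer had the GC box on the opposite strand, beginning at bases -122 and -66 from the start, in a window with 81.1% G and C. Rps2, with 63.6% G and C, had a GC box at -61, the ETS core on the opposite strand at -127, and TATAAA at 18 and, on the opposite strand, at -137. Of 32851 promoter windows of this length, 34.7% held the GC box, 13.1% the TATA box, 36.1% the CCAAT box and 8.45% the ETS core. The windows of Gfer and Rps2 differed in which of these letters they held, and neither held CCAAT. A match of letters is not a measured binding site.

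The mice were F2 animals bred from C57BL/6J and C3H/HeJ inbred parents by intercrossing the F1 in both directions, females and males together, with neither sex nor parental direction given per mouse in the sources used here. Chow with 4% fat was their food to 8 weeks of age. A Western diet (42% fat, 0.15% cholesterol) followed for 12 weeks, until death at 20 weeks, after 12 h without food. Each mouse gave 1 array, on which its brain RNA (Cy3) was set against a pool of RNA from all samples (Cy5), so all 292 arrays formed a single group and no animal had a technical repeat. A value is the log10 ratio of mouse to pool. Neither its base nor its direction is stated in the sources used here, and mouse over pool is the likely reading: the mean linear ratio of the Y-linked gene Eif2s3y, which a pool of all mice should bring near parity, was 0.79 as deposited and 21.6 with the sign turned. Turning the sign would swap high and low below but would leave every correlation as it is.

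Sets of probes missing together marked 3 array batches, of 74 (A), 77 (B) and 141 mice (C). Most relations below are therefore given as Pearson's r after each batch was centred on its own mean. Array medians ran from -0.0073 to 0.0133, and the median r between 2 arrays, taken across probes, was 0.109, with 3.39% of array pairs under -0.3. Ratios to a brain pool give no absolute level, so the labelled tissue could not be checked by its markers. Whole brain was measured, so a change in the share of a cell type and a change in RNA per cell cannot be told apart.

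Gfer fell into 3 groups of mice. Its log10 ratio was -0.322 in the lowest mouse, -0.051 at the median and 0.28 in the highest (SD 0.128, n = 292), a spread larger than that of 96.4% of probes. The 5th to the 95th percentile of mice spanned 2.65-fold. A mixture of 3 normal components placed 58 mice (19.9%) around -0.245, 146 (50%) around -0.059 and 88 (30.1%) around 0.092. The component means stood 1.53-fold and 1.42-fold apart, which is 3.75 and 3.03 times the SD within a component (0.0495), and the low and high means were 2.17-fold apart. The fit improved on 1 component by 24.2 units of the Bayesian information criterion (BIC). Mice of each component occurred in every batch, in unequal shares. The low component held 20.3%, 14.3% and 22.7% of the mice of batches A, B and C, the middle one 37.8%, 45.5% and 58.9%, and the high one 41.9%, 40.3% and 18.4%. The mixture was fitted to values without batch centring, while Gfer averaged lower in batch C than in A and B. These shares, and the Gfer groups used below, may therefore mix group membership with the batch shift. Fitted to 1 batch at a time, Gfer passed the rule for separate clusters in batch C and not in A or B, and with arrays scaled to equal spread 0 of the 17 probes passed it, against 7 of 17 otherwise. Mixtures were fitted to the 17 probes alone, so no share over all probes stands beside these counts.

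Of the 16 Rps2 probes, the 11 with an r under -0.5 with Gfer are called the opposing probes, and they rose and fell together across mice. Their SDs ran from 0.0952 (398940) to 0.119 (398987), and their r with each other from 0.884 to 0.998 (median 0.96 over 55 pairs). Probe 398987, the Rps2 probe with the largest SD, stands for the gene below, and counts of probes that follow Rps2 depended on that choice. It was -0.307 in the lowest mouse, 0.038 at the median and 0.26 in the highest, and spanned 2.46-fold between the 5th and 95th percentile. Its values did not pass the rule for separate clusters. Probe 394163, whose lowest, median and highest values were -0.198, 0.0296 and 0.232, did pass it: 79 mice lay around -0.112 and 213 around 0.066. Of the 8 opposing probes of Rps2 alone it had the largest BIC gain with 3 components (58.9). They held 79 mice around -0.12, 152 around 0.035 and 61 around 0.14, in shares of 27.1%, 52.1% and 20.9%, with gaps of 4.4 and 2.98 SDs.

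**Figure D1:**
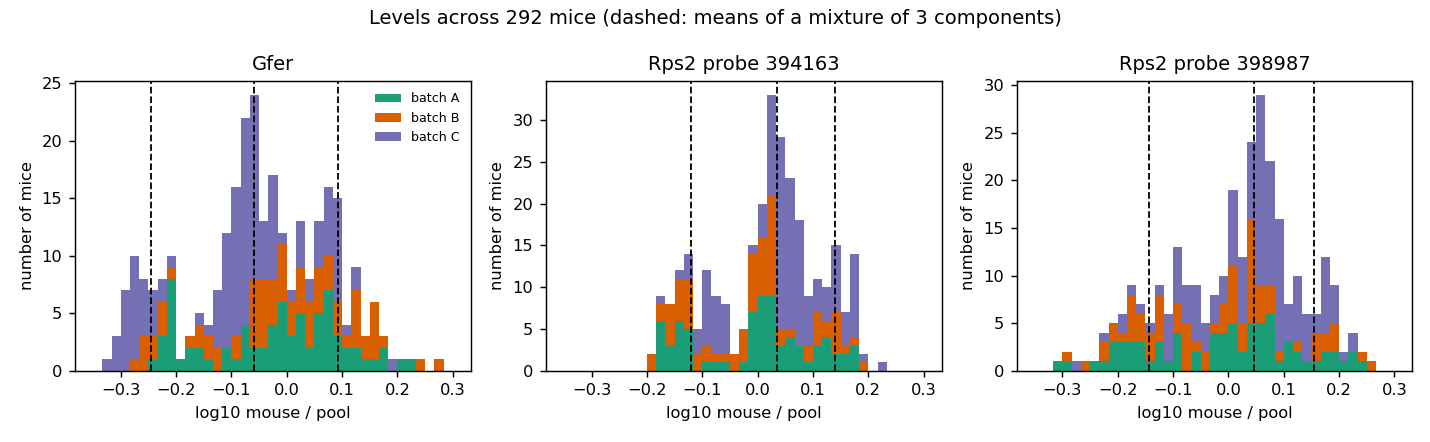
Histograms of the log10 ratio of mouse to pool (x axis) against the number of mice (y axis) for Gfer and for the Rps2 probes 394163 and 398987, with the 3 batches stacked in colour and dashed lines at the means of a 3-component mixture. Gfer has peaks near its component means of -0.245, -0.059 and 0.092, and probe 394163 has a gap between its low mice, around -0.12, and the rest.

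On average neither gene stood far from the pool. Gfer had a mean log10 ratio of -0.0509 ± 0.00745 (SE, n = 292), 1.12-fold below the pool, with 190 mice below and 102 above (limma adjusted p = 2.27e-10). Probe 398987 had a mean of 0.011 ± 0.00693 (limma adjusted p = 0.149), with 181 mice above and 111 below. At an adjusted p under 0.05 and at least 1.2-fold, 0 of the 17 probes were called, where 0.586% of all probes were. Without the fold threshold 13 of 17 were called, against 68.4% of all probes. Mean ratios also differed between batches for 14 of 17 probes, where 64% of all probes differed. Gfer averaged -0.0222 in batch A, -0.0108 in B and -0.0879 in C (SDs 0.123, 0.129 and 0.12; limma adjusted p = 1.57e-05). Probe 398987 went the other way, with -0.0109, -0.022 and 0.0406 (SDs 0.135, 0.126 and 0.0979; limma adjusted p = 0.000318). Batch C thus had the lowest mean of Gfer and the highest of Rps2. Mouse numbers ran from 51 to 196 in batch A, 54 to 212 in B and 213 to 362 in C. The shift of batch C and a trend along mouse number therefore cannot be told apart. With batch in the model, a slope on mouse number describes mice inside batches only. Such a slope was called for 0 of 17 probes, where 18% of all probes had it (limma adjusted p = 0.888 for Gfer and 0.0724 for 398987). At an unadjusted limma p under 0.05 there were 11, for which the share over all probes was not computed. All of the 11 except 393574 were opposing Rps2 probes, which rose and fell together across mice and are not separate results.

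The 11 opposing probes were picked by their r with Gfer, so its sign on them is fixed by that choice. The values ran from -0.857 to -0.825, with a median of -0.843. For 398987, r was -0.834 and Spearman's rho -0.838 with batches centred, and -0.844 and -0.853 without centring. Within batches A, B and C it was -0.811, -0.884 and -0.828, and -0.832 without the 2 mice farthest from the Gfer median. A rise of 1 unit in Gfer went with a slope of -0.784 in this probe, and 223 of 292 mice (76.4%) lay on opposite sides of their batch means for the 2 genes.

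Because Gfer was clustered, these values join groups of mice, and r was also taken inside each group, where Gfer varies less. For 398987 it was -0.402 among the 58 low mice, -0.616 among the 146 middle mice and -0.601 among the 88 high mice. Over the 11 probes the sign was negative in each of the groups, and the values for 394163 were -0.258, -0.544 and -0.516. In the 3-component fit of 398987, 34 of the 58 low-Gfer mice fell in the high Rps2 component, 23 in the middle one and 1 in the low one. Of the 88 high-Gfer mice, 71 fell in the low Rps2 component, 17 in the middle one and 0 in the high one. The components of 398987 are ranges, since its distribution was not called clustered.

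**Figure D2:**
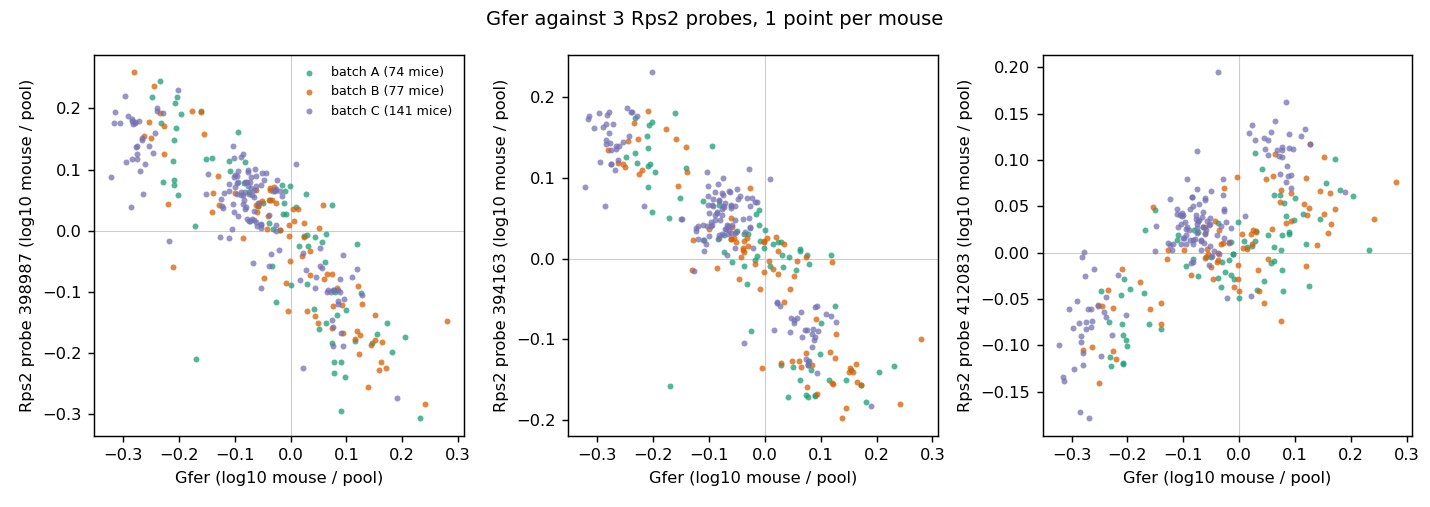
Each point is 1 mouse, coloured by batch, with the log10 ratio of Gfer on the x axis and that of an Rps2 probe (398987, 394163 or 412083) on the y axis. The first 2 panels fall from upper left to lower right (r of -0.834 and -0.856, batch-centred), and the panel of 412083 climbs (r 0.78), with mice in groups along the Gfer axis.

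The 11 probes shared more than their relation with Gfer. At fixed Gfer, their partial correlations with each other were still 0.614 to 0.992, with a median of 0.861 over 55 pairs. The 3 probes assigned to Rps2 and another gene behaved like the 8 assigned to Rps2 alone, with r to Gfer of -0.843 (410806), -0.838 (397711) and -0.825 (395964). The probe of the pseudogene Rps2-ps9, which the gene table also places on chromosome 17, followed them (r 0.788 with 398987 and -0.706 with Gfer). How much of each signal comes from Rps2 itself and how much from its copies was not tested.

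The remaining 5 Rps2 probes did not oppose Gfer. Probe 412083, assigned to Rps2 alone, went with Gfer instead: r was 0.78 with batches centred, 0.704, 0.722 and 0.857 in batches A, B and C, and 0.254, 0.289 and 0.402 in the low, middle and high Gfer groups. It was -0.179 in the lowest mouse, 0.0136 at the median and 0.195 in the highest (SD 0.0634). Against the 11 opposing probes its r was -0.745 to -0.608, and at fixed Gfer it was -0.247 to 0.101. A single gene symbol thus covers probes of both directions, and the sources used here do not give the probe sequences that would place 412083 within the gene. Probe 409890 had an r with Gfer of -0.176. Its lowest mice, at -0.801 and -0.571, were both in batch C, and its median was 0.00147. Probe 410583 had an r of -0.0124, with an SD of 0.0485. The pair with an unmatched identifier had r of 0.0344 (409630, SD 0.0245) and 0.0358 (393574, where 1 mouse stood at -0.682 and the next lowest at -0.114). Between the last opposing probe (-0.825) and 409890 (-0.176) no probe lay.

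**Figure D3:**
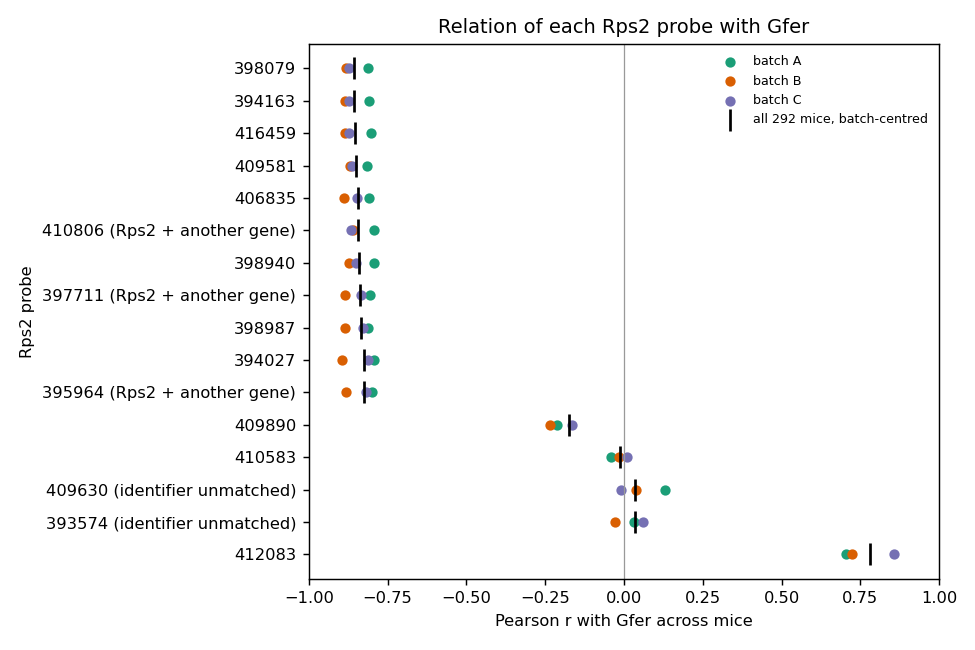
Pearson's r with Gfer (x axis) for each of the 16 Rps2 probes (y axis), as coloured points for batches A, B and C and a black tick for all 292 mice with batches centred. In all 3 batches 11 probes lie at the left, 412083 lies at the right, and the other 4 ticks lie between -0.176 and 0.0358.

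Opposition of this size was rare among neighbours. Of 10813 pairs of measured genes that follow each other along a chromosome, each gene taken by its probe with the largest SD, Gfer and Rps2 had the lowest r. The next were Cwc22 and Ube2e3 on chromosome 2 (-0.748) and Eif4g2 and Galnt18 on chromosome 7 (-0.706). Rps2 and Msrb1, the next measured gene on the Rps2 side, also stood low in the order with -0.681. The median over all pairs was 0.0353, and 98 pairs were at or under -0.5. The pair was picked for this value, so its place in the order describes the choice.

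Genes that followed Gfer were few and many of them were on its own chromosome. At an adjusted p under 0.05 and an r of at least 0.3 either way (limma slope with batch in the model), 450 of 23532 other probes followed Gfer, which is 1.91%. Of these, 285 (1.21%) went with it and 165 (0.701%) against it. Chromosome 17 held 4.53% of all named and placed probes. It held 28.5% of those that went with Gfer (47 of 165) and 49.2% of those that went against it (30 of 61). Looked at by chromosome, 13.5% of the probes of chromosome 17 followed Gfer (77 of 572), and on the other chromosomes 0 to 2.99% did. Among the 97 probes with an r of at least 0.5 either way, 35 of the 44 named and placed ones (79.5%) were on chromosome 17.

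Spsb3, an adaptor of ubiquitin ligases, had the highest r, 0.828 (slope 0.447 ± 0.0178 SE; limma adjusted p = 1.07e-71), and lies on the Rps2 side of the pair. Pkmyt1, a kinase that holds Cdk1 inactive, followed with 0.826 (limma adjusted p = 3.32e-71). Decr2, a peroxisomal reductase of unsaturated fatty acids, had 0.8 and the largest slope of this group, 1.32 ± 0.0581, over log10 ratios from -0.597 to 0.291. Msrb1, a selenoprotein that repairs oxidised methionine, had 0.763, and the adhesion receptor gene Adgrf4 had 0.749. Eci1, a mitochondrial isomerase of fatty acid oxidation, had 0.736. The cytochrome P450 gene Cyp4f14 and the mitochondrial alanyl-tRNA synthetase gene Aars2 both had 0.698. Cchcr1 had 0.652. Dvl3, a dishevelled protein of Wnt signalling, had 0.631 and was the 1 gene among these 10 that is not on chromosome 17 but on chromosome 16.

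The 5 genes most opposed to Gfer were all among the 10 most like Rps2. Gnptg encodes the gamma subunit of the enzyme that starts the mannose phosphate tag of lysosomal enzymes. It had an r of -0.838 with Gfer (slope -0.892 ± 0.0341; limma adjusted p = 2.21e-75) and of 0.862 with 398987 (slope 0.976 ± 0.0336; limma adjusted p = 4.96e-85). Its ratios ran from -0.285 to 0.28. Wtap, a subunit of the complex that writes N6-methyladenosine, had -0.766 with Gfer and 0.797 with Rps2 on the probe with the larger SD, but -0.077 and -0.002 on its other probe. Tiam2, an exchange factor for Rac, had -0.733 and 0.692. Ccr6, a chemokine receptor, had -0.709 and 0.742. Rps2-ps9 completed the lowest 5 for Gfer.

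The other 5 of those 10 were the dynein light chain genes Tcte3 (r 0.702 with Rps2 and -0.681 with Gfer) and Dynlt1b (0.686 and -0.688), the splicing scaffold gene Srrm2 (0.681 and -0.701), the class I histocompatibility gene H2-Bl (0.678 and -0.65) and the acetyl-CoA acetyltransferase gene Acat3 (0.62 and -0.669). The lowest values with Rps2 were those of Pkmyt1 (-0.758), Dvl3 (-0.738), Spsb3 (-0.709), Decr2 (-0.703) and Msrb1 (-0.681). All named here except Dvl3 are on chromosome 17. Of the 20 genes named in these ranks, 19 kept the sign of their r with Gfer in each of the 3 Gfer groups, the exception being Eci1 (-0.0799 among the low mice), and 19 kept that with Rps2, the exception being Cyp4f14 (0.017 among the low mice). Inside the groups Gnptg had r with Gfer of -0.444, -0.486 and -0.484, and with Rps2 of 0.63, 0.595 and 0.718. Spsb3 had 0.523, 0.56 and 0.671 with Gfer and -0.577, -0.309 and -0.27 with Rps2.

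By partial r, the shared pattern did not divide evenly between the 2 genes. Gfer and 398987 had an r of -0.834, so a partial r rests on the smaller part of variation that they did not share. How stable these values are was not tested. With Rps2 as a covariate, Spsb3 kept a partial r of 0.609 with Gfer, while at fixed Gfer its partial r with Rps2 was -0.059 (limma adjusted p = 0.426). Eci1 had 0.549 and 0.066, and Decr2 0.545 and -0.108. Dvl3 was the reverse, with 0.042 to Gfer at fixed Rps2 (limma adjusted p = 0.61) and -0.494 to Rps2 at fixed Gfer. Gnptg kept both, at -0.426 and 0.543. With each of the 11 opposing probes in turn, an alternative added after seeing the data, the partial r of Spsb3 and of Eci1 was larger with Gfer for 11 of 11 probes, and that of Dvl3 for 0 of 11. For Decr2 it was larger with Gfer for only 6 of 11: its partial r ran from 0.355 to 0.58 with Gfer and from -0.436 to -0.05 with Rps2. The division of Decr2 thus depended on the Rps2 probe. So did that of Cyp4f14 (6 of 11). The 11 probes rose and fell together across mice, so these counts of probes are not separate repeats.

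How many probes followed Rps2 depended on the probe that stood for it. With 398987, 1432 probes were called (6.09%), 971 with it (4.13%) and 461 against it (1.96%). Over the other 10 opposing probes the count ran from 196 (409581) to 2010 (395964), with 1030 for 394027 and at most 301 for the rest. Of the 1432 probes, 1397 were also called with 395964 and 963 with 394027. With the mean of the 8 opposing probes assigned to Rps2 alone, 220 were called. Probe 398987 had an r of -0.404 with the first principal component of the batch-centred table, which held 12.3% of the variance, and Gfer had 0.219. A stricter set, called with an r of at least 0.3 on every one of the 11 probes, held 147 probes, 85 with Rps2 and 62 against it. In that set 26 of the 31 named and placed probes that went with Rps2 (83.9%) and 27 of the 40 that went against it (67.5%) were on chromosome 17, where the wider set of 398987 had 9.39% and 15.5%.

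The followers of the 2 genes mirrored each other, which the choice of an opposed pair largely fixes. Of the probes in the stricter Rps2 set, 61 went with Gfer and against Rps2, and 81 against Gfer and with Rps2. No probe (0) went with both or against both. The 2 fits use the same mice, so their overlap is not independent evidence.

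Along chromosome 17, genes of both directions stood side by side. Of the 10 measured genes next to the pair on the Rps2 side, 7 followed Gfer, and of the 10 on the Gfer side 1 did. From step 11 to 25 the counts were 4 of 15 and 5 of 15, and from step 26 to 50 they were 4 of 25 and 2 of 25. From step 51 to 100 they were 5 of 50 and 12 of 48. The last count includes H2-Q8, whose place in the gene table at the far end of the Gfer side, away from other H2-Q genes, is doubtful, and is 11 of 47 without it. From step 101 to 200 on the Rps2 side 20 of 100 genes followed Gfer, a larger share than from step 51 to 100 on that side. Even beyond step 200 on the Rps2 side 13 of 216 genes followed Gfer, against 136 of 10318 genes on other chromosomes. The median size of r was 0.401 over the nearest 10 genes on the Rps2 side, 0.105 over the nearest 10 on the Gfer side and 0.087 over other chromosomes. Adgrf4 and Aars2, with the r of 0.749 and 0.698 given above, lie 743 and 782 places from Gfer in the gene table.

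**Figure D4:**
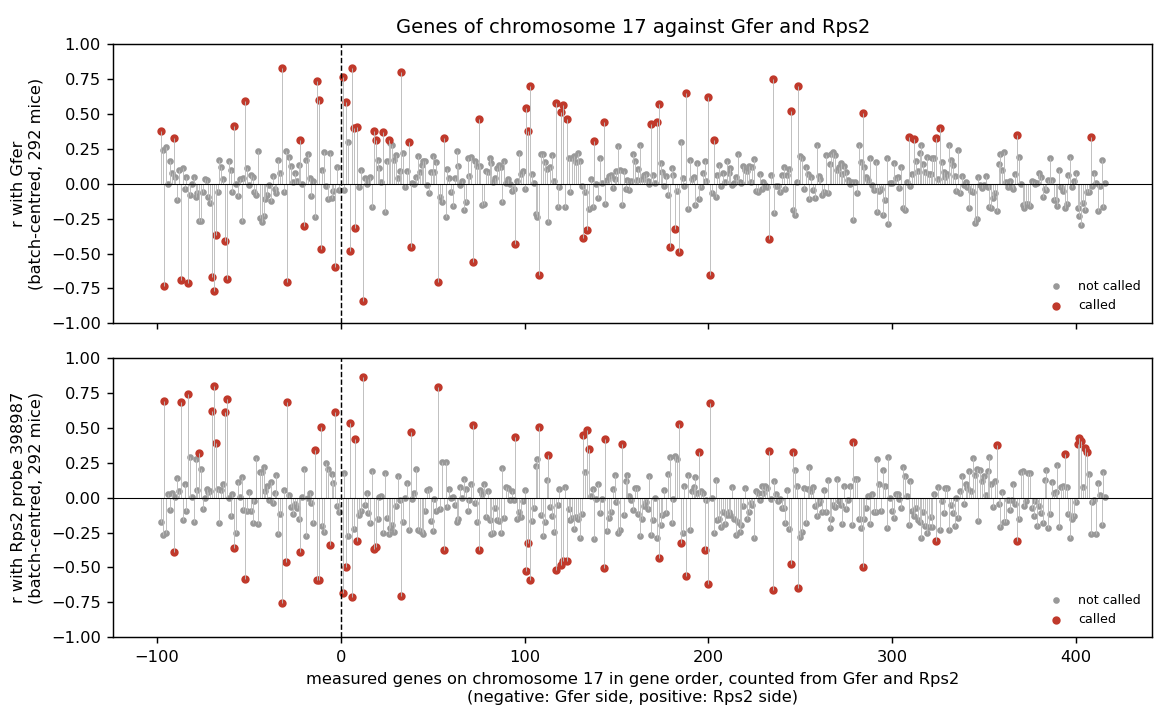
Each point is a measured gene of chromosome 17, placed by its rank in gene order from Gfer and Rps2 (x axis, dashed line at the pair, negative on the Gfer side), with its batch-centred r with Gfer in the upper panel and with Rps2 probe 398987 in the lower panel. Called genes (red) lie above and below 0 on both sides of the pair, and the panels are near mirror images, with Spsb3 at 0.828 above and -0.709 below.

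The nearest genes varied one by one. On the Gfer side, Syngr3, a synaptic vesicle protein next to Gfer, had an r of -0.043 with Gfer (limma adjusted p = 0.663), and Zfp598, a sensor of collided ribosomes, had 0.121. Npw, the precursor of neuropeptide W, went against Gfer (-0.595) and with Rps2 (0.614). Slc9a3r2 (-0.052), the DNA glycosylase gene Nthl1 (-0.105), the polycystin gene Pkd1 (-0.106) and Traf7 (-0.017) did not pass with Gfer. Tsc2, the tuberin gene, had 0.222 with Gfer, under the r of 0.3 that a call needs, and -0.34 with Rps2. On the Rps2 side, Msrb1, Spsb3, Hagh (0.582), whose product is glyoxalase II, and Mrps34 (0.397), a protein of the mitochondrial ribosome, went with Gfer. Nubp2 (-0.483), a scaffold of cytosolic iron-sulphur cluster assembly, and Nme3 (-0.32), a nucleoside diphosphate kinase, went against it. Hs3st6 (-0.046) and Fahd1 (0.297) were not called. Npw, Nubp2 and Nme3 went with Rps2, with r of 0.614, 0.537 and 0.417.

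Few genes outside chromosome 17 followed both Gfer and every opposing Rps2 probe closely. After Dvl3, the highest r with Gfer were those of Cryz on chromosome 3 (0.58; -0.633 with Rps2), Pdlim2 on chromosome 14 (0.576 and -0.454) and Rnase10 on chromosome 14 (0.559 and -0.663). Kcna7, a potassium channel gene on chromosome 7, had 0.516 and -0.641. Zc3h12c on chromosome 9 stood on the other side, with -0.596 and 0.466, and its r with Gfer was -0.532, -0.549 and -0.696 in batches A, B and C. Among named genes on other chromosomes, 15 of 10318 were called with every opposing Rps2 probe. Genes in this paragraph were picked after their values were seen.

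Among other ribosomal protein genes the probes of 1 gene did not always go together. By the probe with the largest SD, of 12 other small-subunit genes measured, 0 followed Gfer (r from -0.222 for Rps6 to 0.296 for Fau), and 1, Fau, went against Rps2 (-0.324 with 398987, -0.341 to -0.037 over the 11 probes). Of 28 large-subunit genes, 0 followed either gene, with Rpl10a on chromosome 17 at -0.239 with Gfer and 0.258 with Rps2. Over all probes of these genes, an alternative added after seeing the data, 2 of 45 small-subunit probes went against Gfer, and both were of Rps18, on chromosome 17. They had r with Gfer of -0.467 (395142; limma adjusted p = 1.03e-14) and -0.339 (411916), and with Rps2 of 0.512 and 0.438, while the largest-SD probe of Rps18 had -0.165 and -0.054. Probe 395142 also passed on every opposing probe (0.498 to 0.568). With 398987, 6 small-subunit probes went with Rps2 (2 of Rps18 and 4 of Rpsa) and 2 went against it, and of 120 large-subunit probes 4 went with it, 3 against it and 0 with or against Gfer. Ribosomal protein probes carry the same doubt about near-identical copies as those of Rps2. The r of 0.3 that a call needs bore on the gene counts. By the limma adjusted p alone (under 0.05), 8 of the 12 and 23 of the 28 passed with Rps2, and 5 and 10 with Gfer, where 4901 and 2931 of all 10833 named genes did. At an unadjusted p under 0.05 the counts were 8 and 23 with Rps2, where 5630 of all named genes passed, and 7 and 13 with Gfer, where 4116 did. The median r with Rps2 was -0.148 for the small and -0.162 for the large subunit, and -0.023 over all named genes. These counts and medians with Rps2 rest on 398987 alone. Over the 11 opposing probes, Rpl23a, the lowest large-subunit gene with 398987, had r from -0.315 to -0.011. Rpl10a, the highest, had 0.133 to 0.278. With the r of 0.3 in the rule, 155 of all named genes went with Gfer and 54 against it, and 404 went with Rps2 and 225 against it.

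Among 7 genes of small-subunit assembly and Rps2 partners, those that followed Gfer were on chromosome 17. Riok2, a kinase of late small-subunit maturation, had an r of 0.593 with Gfer and -0.582 with Rps2. Pdcd2, which is known to bind the Rps2 protein, had 0.413 and -0.362. Tsr1 (0.335) and Emg1 (0.31), further maturation factors, went with 398987, but over the 11 probes their r began at 0.083 and 0.016. Of 10 translation factor genes with terminal oligopyrimidine mRNAs, 0 followed Gfer and 4 went with 398987, as 404 of all 10833 named genes did. Nap1l1 (0.349) and Tpt1 (0.324) led the 4, and 0 of the 4 passed on every opposing probe. By adjusted p alone 4 of the 10 passed with Gfer, where 2931 of the 10833 named genes did. At an unadjusted p under 0.05, 5 of the 10 passed, where 4116 of the 10833 did. Over all 31 probes of these genes, 1 of Npm1 (396696) went against Gfer (-0.305). Of the same 31 probes, 7 went with 398987 and 0 against it, where 4.13% and 1.96% of all probes tested did.

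No measured gene of the Mia40 pathway reached a call with Gfer, where 155 of all 10833 named genes went with it and 54 against it. At that share, 0 calls in a list this short says little about the pathway. With 398987, 404 of all named genes went with it and 225 against it. Of 15 genes of the Mia40 disulfide relay and its substrates, 0 followed Gfer, with r from -0.204 for Timm9 to 0.267 for Timm10b, both small chaperones of the intermembrane space. With 398987, Ccs, the copper chaperone of superoxide dismutase, went up (0.366) and so did Timm9 (0.326), while Chchd10 went down (-0.303), and Ccs alone passed on every opposing probe. Of 9 genes of mitochondrial import 0 followed Gfer, and 1, Timm17a (0.338), went with 398987. Of 6 genes of iron-sulphur cluster assembly 1 went against Gfer, which was the neighbour Nubp2. Of 15 genes of other sulfhydryl oxidases and thiol redox enzymes 0 followed either gene, with Qsox1 at 0.133 and Pdia3 at -0.15 with Gfer. By the limma adjusted p alone 8 of the 15 Mia40 genes, 5 of the 9 import genes and 1 of the 15 thiol redox genes passed with Gfer, and at an unadjusted p under 0.05 the counts were 10, 5 and 5, set against the same 2931 and 4116 of 10833 named genes. With Rps2, 6 of the thiol redox genes passed by adjusted p alone and 7 by unadjusted p, where 4901 and 5630 of all named genes did. With Gfer, the Mia40, import and thiol redox genes all had an r under 0.3 in size, as had the thiol redox genes with Rps2. Nubp2 and the genes called with 398987 went beyond that.

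Markers of brain cell types were not called with Gfer in any list, where 155 of 10833 named genes went with it and 54 against it. At that share, 0 calls in lists this short say little about cell makeup. Of 7 oligodendrocyte markers the highest was Mog, on chromosome 17 (0.211), of 7 microglia markers Tmem119 (0.299), of 6 astrocyte markers Gja1 was lowest (-0.232), and of 3 neuron markers Snap25 was lowest (-0.228). Endothelial (4 measured), choroid plexus (4), anterior pituitary (4) and erythrocyte (3) markers lay between -0.061 and 0.145 with Gfer. With 398987, where 404 of 10833 named genes went with it and 225 against it, 1 marker of these lists was called. This was Gad1, which makes the transmitter GABA (0.381), and over the 11 probes its r went from 0.06 to 0.422. By the limma adjusted p alone, 2931 of 10833 named genes passed with Gfer. Of the markers, 1 of the 7 oligodendrocyte, 3 of the 7 microglia, 2 of the 6 astrocyte and 3 of the 3 neuron ones passed, and 0 of the other 4 lists. At an unadjusted p under 0.05 these counts were 2, 4, 3 and 3, with 2 choroid plexus markers and 0 of the remaining lists, where 4116 of 10833 named genes passed. With 398987, 4901 of 10833 named genes passed by limma adjusted p alone. So did 5 of the 7 oligodendrocyte, 3 of the 7 microglia, 3 of the 6 astrocyte and 2 of the 3 neuron markers. Of the endothelial and choroid plexus markers 1 and 2 passed, and 0 pituitary or erythrocyte ones. At an unadjusted p under 0.05 these counts were 6, 4, 3, 3, 2, 2 and 0, where 5630 of 10833 passed. The part of cell makeup in the relation of Gfer and Rps2 was not tested.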

How the data were processed

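Brain RNA of 292 mice was measured on 292 arrays of 2 colours. The deposited table holds 1 value per probe and array, taken as log10 ratios. How the authors analysed images, normalized and filtered is not stated here. Of 23574 probes, 25 missing on over 5% of arrays were left out and 252 gaps took the mean of their probe. Gene names came from the platform annotation through the RefSeq table of GRCm38.p6 (12645 probes matched, 1002 with 1 gene did not). The probe with the largest SD stood for a gene.

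Batches were marked by probes missing together on at least 20 arrays. Slopes on the member's level, with batch, were fitted in limma 3.58.1 (R 4.3.3) over 23532 probes that are not members, with Benjamini-Hochberg adjustment. A call needed an adjusted p under 0.05 and a batch-centred r of at least 0.3. Mixtures of 1 to 3 components came from mclust 6.1.1. Clusters needed a BIC gain over 10, means over 3 SDs apart and 5% of mice each. On simulated data, 94% of slopes with an r of 0.4 and 100% of those with 0.6 were recovered, with 0 false calls. Each simulated probe had its own independent noise. The 0 false calls therefore say nothing about variation that probes share, such as the first principal component.

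Genes were named by rank of r (10 highest and 5 lowest per member), as the 8 nearest measured genes on each side and as the 2 highest and the lowest of each list. Text on other chromosomes went beyond this. The members and lists were chosen with earlier results of these data known. No intensities were used, so noise at low signal was not assessed, and the stated precision reflects the number of arrays alone. It does not cover the choice of probe or signal from near-identical copies.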

Additional observations from a re-analysis of the deposited data

How the results depend on the processing

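No paired analysis was possible because the mice form 1 group with no replicate numbers shared between groups. The r of Gfer with Rps2 probe 398987 was -0.884 in batch B alone. Inside the Gfer groups, taken after seeing the data, it was -0.402, -0.616 and -0.601. All other settings tried for this relation gave -0.86 to -0.811.

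The number of probes that follow Gfer (450) was 5952 without the threshold on r, 97 at an r of at least 0.5, 2259 without the batch term, 1916, 1136 and 286 in batches A, B and C alone, 279 with 5 principal components and 2031 with Rps2 as a covariate. With ranks (442), scaled arrays (410) and without the 2 farthest mice (323) it stayed within 1.5 times.

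The number of probes that follow Rps2 (1432) was 10611 without the threshold, 91 at an r of at least 0.5, 2525 without the batch term, 5276 in batch A, 277 with principal components and 3300 with Gfer as a covariate. By opposing probe it was 2010 (395964), 1030 (394027), 203 (394163), 235 (397711), 206 (398079), 210 (398940), 301 (406835), 196 (409581), 207 (410806) and 204 (416459). By the others it was 8397 (409630), 1655 (393574), 731 (409890), 3792 (410583) and 182 (412083). The mean of 8 probes gave 220 and all opposing probes together 147, both added after seeing the data.

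Of the 15 genes ranked for each member, all kept sign and call in the other settings run for named genes, except that 3 (Gfer) and 8 (Rps2) lost the call with the other member as a covariate. With Rps2 as a covariate, 37 of the 101 named genes turned the sign of their r with Gfer, and 6 of these were called before or after: Traf7 (0.35), Nme3 (0.055), Rpl23a (-0.374), Nap1l1 (0.331), Tpt1 (0.342) and Ccs (0.317). With Gfer as a covariate, 19 of 101 turned sign with Rps2, of which Eci1 (0.066) and Rpl13 (0.312) were called before or after. With principal components, Fau (0.027), Emg1 (-0.055) and Timm17a (-0.011) turned sign against Rps2.

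Against the pool, 13 probes were called without the fold threshold and 1 in batch C alone. Without the batch term 12 member probes had a slope on mouse number, a count for which the share over all probes was not computed. That slope cannot be told apart from the shift of batch C, which held the highest mouse numbers. Clusters were called for 13 probes with means over 2 SDs apart and 0 with scaled arrays, in mixtures fitted to the member probes alone. The cause of these moves was not tested.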
